A study of Rattus norvegicus with 9 samples.

Results

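Striatal RNA of rats in the edaravone dexborneol group (EDB) was compared with that of rats in the intracerebral hemorrhage group (ICH), bleeding into the brain tissue. The comparison rests on 6 of the 9 libraries of the study, 3 in each group, and the other 3 libraries are of a Sham group. All genes with enough counts for a test were taken, which were 14274 of the 22890 genes in the files. The labels give the group and the tissue. Whether a hemorrhage was also made in the EDB rats is not stated, and neither are the method of bleeding, dose, timing, strain, sex or whether each library is a separate animal. Every p-value therefore measures only the spread between these samples, which may be technical.

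Edaravone scavenges free radicals, and dexborneol, the dextrorotatory form of borneol, is given with it as an agent against inflammation. After bleeding into the brain, microglia and incoming blood macrophages clear red cells and dying cells, and release proteases, cytokines and oxidants. Astrocytes near the lesion enlarge, express intermediate filaments and lay down matrix, and some glial and myeloid cells divide. The striatum is made up largely of projection neurons that carry dopamine receptors and the phosphoprotein encoded by Ppp1r1b.

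Total counts ran from 14658110 to 17659936 per library. Levels are given as CPM, counts scaled by library size, and values of a group's 3 libraries are always in the order 1, 2 and 3. Differences are fitted log2 fold changes of EDB minus ICH ± SE, with 3 libraries against 3. A gene is called, and said to be higher or lower, where its Benjamini-Hochberg adjusted p from edgeR's quasi-likelihood test over all 14274 genes was under 0.05. Striatal markers were present in all 6 libraries, with Ppp1r1b from 2330 to 4145 CPM, Drd1 from 239.6 to 397 CPM and Penk from 941 to 1606 CPM. Libraries ICH 1 and EDB 3 stood apart from their groups. ICH 1 had 0 counts of the Y-linked genes Kdm5d and Eif2s3y, which were at 13.4 to 18.1 CPM and 6.61 to 8.87 CPM in the other 5. EDB 3 had 6684 CPM of Ttr and 204.3 CPM of Kl, transcripts of the choroid plexus, against at most 52.0 and 3.96 CPM in the other 5. The 19 choroid plexus and ependyma markers in the files summed to 8745 CPM in EDB 3, to 297.1 and 349.1 CPM in the other EDB libraries, and to 255.6 to 420.1 CPM in the ICH libraries, with none at 0 throughout. How these features of ICH 1 and EDB 3 bear on the results was not tested beyond leaving the libraries out. Each list median below is therefore given with all libraries and, in brackets or beside it, without ICH 1 and EDB 3.

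More genes were lower than higher in EDB. Most lower calls were in the lists of reactive astrocytes (6 of 25 tested), microglia around damage (5 of 19) and cell division (4 of 26). These counts were not stable. They became 3, 2 and 0 without ICH 1 and EDB 3, and 3, 0 and 0 without EDB 3 alone. In all, 90 genes were lower in EDB than in ICH (0.631% of the genes tested) and 8 were higher (0.056%). The median log2 fold change was -1.33 over the 90 and 0.82 over the 8, beside -0.033 over all genes tested. Of the lower genes 66 were beyond 1 log2 unit, and of the higher genes 1. At an unadjusted p under 0.05 there were 1423 lower and 895 higher of the 14274 genes tested. DESeq2 called 481 lower and 215 higher of them, and limma-voom 161 and 21. Counts of list members given below by these measures are to be read beside these totals. The 3 EDB libraries lay wholly below the 3 ICH libraries for 13.6% of the genes tested and wholly above them for 11.6%. All 90 lower and all 8 higher calls were among these genes. Of the lower calls, 57 had their highest ICH value in ICH 1, which was so for 38.0% of all genes, and 48 had their lowest EDB value in EDB 3, which was so for 32.8%.

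**Figure D1:**
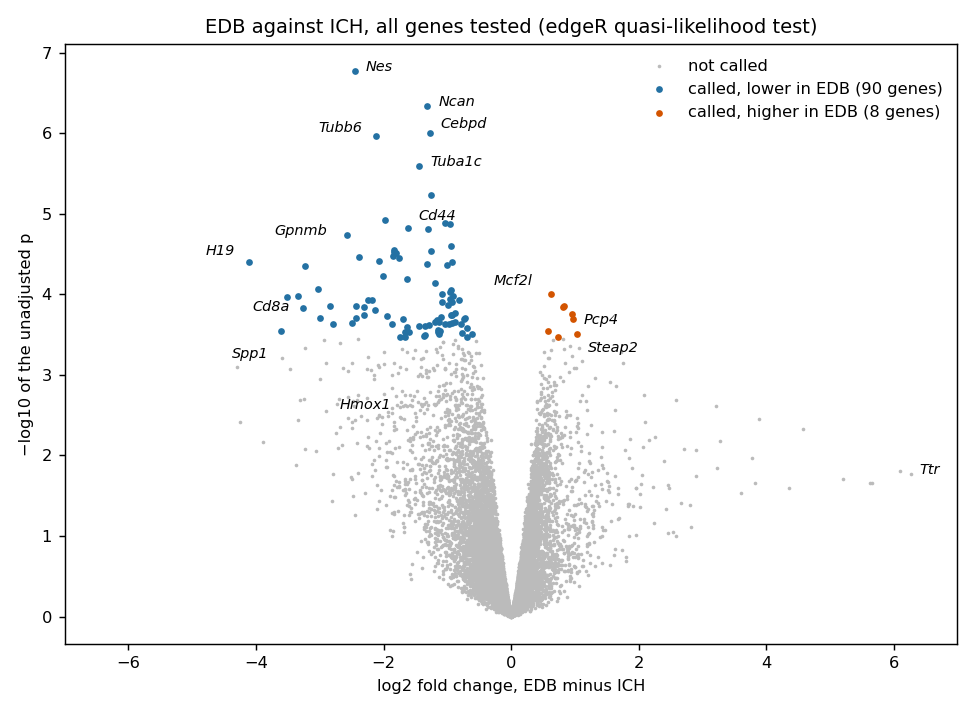
Each point is 1 of the 14274 genes tested, with the log2 fold change of EDB minus ICH on the horizontal axis and -log10 of the unadjusted p on the vertical axis. The 90 called genes on the left outnumber the 8 on the right, and Ttr, carried by EDB 3 alone, lies far right without a call.

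The number of calls hung on single libraries. Without ICH 1, ICH 2 or ICH 3 the lower genes numbered 20, 8 and 32, and without EDB 1, EDB 2 or EDB 3 they numbered 44, 8 and 10. The Sham libraries enter only through the filter, the scaling and the shared estimate of the spread. Without Sham 1, Sham 2 or Sham 3 there were 38, 229 and 33 lower genes. Liver transcripts also differed between the Sham libraries. Raw counts in Sham 1, Sham 2 and Sham 3 were 2658, 47 and 2331 for Alb and 121, 0 and 103 for Fgb. In the ICH and EDB libraries Alb ran from 39 to 413 and Fgb from 2 to 31. Sham 1 and Sham 3, not Sham 2, thus stood apart in these genes. Whether this bears on the calls was not tested. The higher genes numbered 4, 0 and 0 without ICH 1, ICH 2 or ICH 3, then 0, 1 and 0 without EDB 1, EDB 2 or EDB 3, and 3, 92 and 4 without Sham 1, Sham 2 or Sham 3. With ICH 1 and EDB 3 both left out, 11 genes were lower and 5 higher, and 8 of those 11 were among the 90: Gpnmb, Nes, Tubb6, Hspb1, Tk1, Cd44, Ncan and Cebpd. DESeq2 on the same counts called 481 lower and 215 higher genes, among them all 98. Of the 98, 20 were called in 5 or more of the 9 fits that left out 1 library. Among lower genes described below, Siglec1, Aurka, Abca1, Cxcl16, Cd14 and Fos were each called in 1 of the 9.

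**Figure D2:**
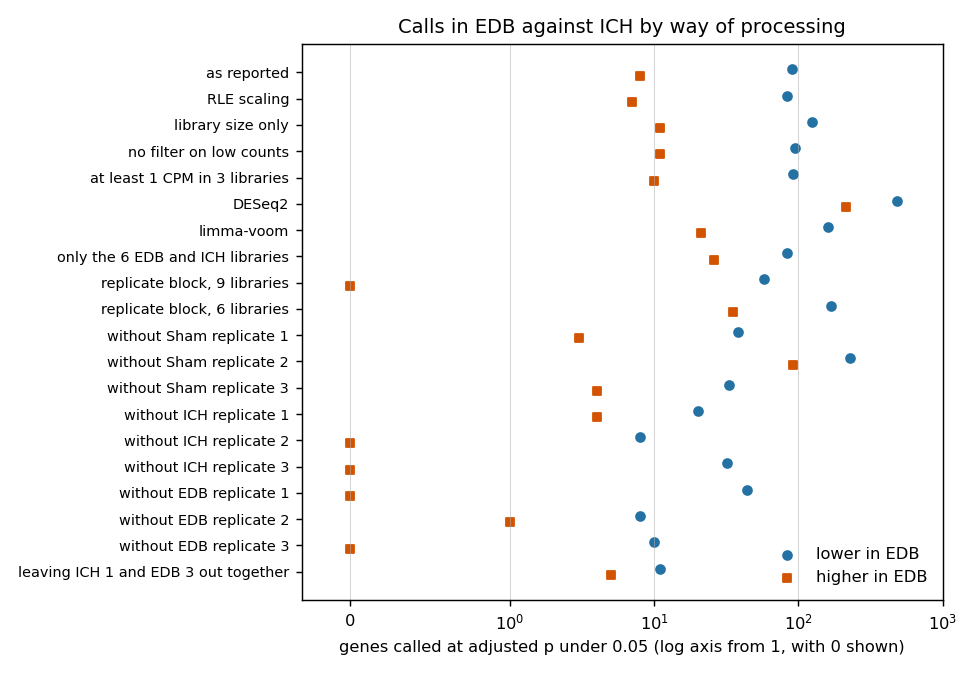
The number of genes called at an adjusted p under 0.05 (horizontal, log axis from 1 with 0 shown) is plotted for each way of processing, circles for genes lower and squares for genes higher in EDB. The circles run from 8 without ICH 2 or EDB 2 to 481 with DESeq2, and lie right of the squares in all settings shown.

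The 5 genes called in each of the 9 fits that left out 1 library were Nes, Ncan, Cebpd, Tubb6 and Tuba1c. Nes encodes nestin, an intermediate filament of neural progenitors and reactive astrocytes. The ICH libraries held 70.2, 60.3 and 64.4 CPM, the EDB libraries 14.4, 10.8 and 10.4 CPM, and the Sham libraries 16.1, 10.3 and 17.6 CPM. All EDB libraries were far below all ICH libraries and within the Sham range, and the fitted difference was -2.45 ± 0.21, a 5.47-fold lower level (adjusted p = 0.00242). Ncan encodes neurocan, a chondroitin sulfate proteoglycan of brain matrix and of glial scars. Its level was 431.6, 468.7 and 544.5 CPM in ICH and 193.2, 182.2 and 206.2 CPM in EDB, with 159.3 to 183.5 CPM in Sham (-1.31 ± 0.12, adjusted p = 0.00323). Cebpd, a transcription factor gene induced by inflammatory cytokines, was at 60.1, 53.5 and 59.6 CPM in ICH and 25.9, 23.3 and 22.4 CPM in EDB, again with no overlap (-1.27 ± 0.13, adjusted p = 0.00384). The EDB values of Cebpd lay above the Sham range of 11.9 to 14.1 CPM.

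Tubb6 and Tuba1c encode a beta and an alpha tubulin, the subunits of microtubules. Tubb6 counted 56.9, 46.2 and 45.7 CPM in ICH against 15.4, 8.03 and 10.9 CPM in EDB, and 10.8 to 12.1 CPM in Sham (-2.11 ± 0.22, adjusted p = 0.00384). Tuba1c counted 60.9, 50.3 and 48.0 CPM in ICH against 23.3, 17.4 and 17.9 CPM in EDB, and 9.17 to 10.9 CPM in Sham (-1.44 ± 0.16, adjusted p = 0.00729). Both groups were tight beside the distance between them. Tubulin genes are near copies of each other, so reads could be split between them in counting, and the same holds for Lyz2, Ifitm1 and other members of gene families below. Because the strand setting is not given in the sources used here, reads of a gene and of an overlapping antisense gene cannot be told apart.

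The deepest fall among genes with a symbol and at least 5 CPM was that of H19, an imprinted long noncoding RNA. H19 was at 25.1, 26.9 and 24.1 CPM in ICH and at 3.22, 0.540 and 0.625 CPM in EDB, with at most 0.562 CPM in Sham (-4.11 ± 0.62, adjusted p = 0.0244). EDB 1 was the highest EDB library and still far below the ICH range. Next came Cd300le, a receptor gene of the CD300 family of myeloid cells (-3.52 ± 0.59), RGD1559482 (-3.34 ± 0.56), Cd8a (-3.26 ± 0.57) and Adam8, a metalloprotease of leukocytes (-3.23 ± 0.49). In these 4, ICH 1 exceeded the other ICH libraries, with 49.2 CPM of Cd300le against 20.8 and 14.1, and 36.0 CPM of Cd8a against 13.97 and 7.56. Without ICH 1 and EDB 3 the differences of Cd300le and Cd8a were -2.40 (adjusted p = 0.0772) and -2.27 (adjusted p = 0.161). Those of H19, Adam8 and RGD1559482 were then -3.764, -2.427 and -2.335 (adjusted p = 0.1158, 0.1298 and 0.1415), so none of the 5 was called. The other genes among the 14 deepest falls were Ifitm1 (-2.79), Gpnmb (-2.58), Nes, Lgals3 (-2.44), Sdc1 (-2.38), Plau (-2.31), Siglec1 (-2.30), Mcm10 (-2.25) and Anpep (-2.13).

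**Figure D3:**
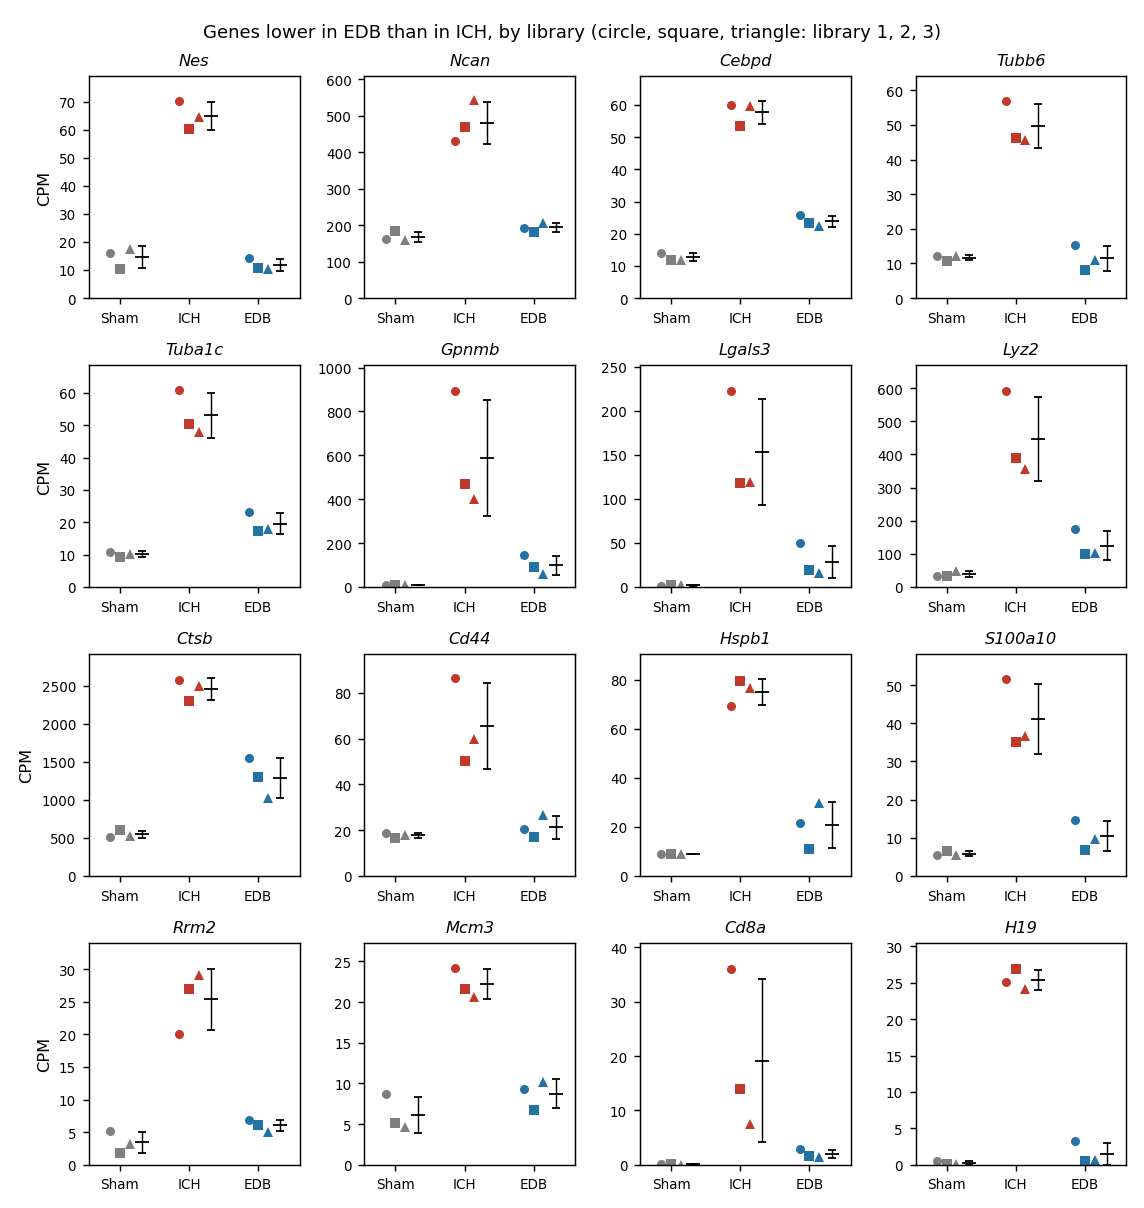
Each panel gives the CPM of 1 gene (vertical axis from 0) in the 3 Sham, 3 ICH and 3 EDB libraries, with the mean and SD (n = 3) as a black dash and bar. In all 16 genes the 3 EDB libraries lie below the 3 ICH libraries, and ICH 1 is the highest of its group in all but Ncan, Hspb1, Rrm2 and H19.

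Genes of phagocytes that take up debris made up the next group. A list of 21 genes known from microglia around damage, of which 19 were tested, had 5 lower, 0 higher and 14 not called, with a median of -1.19 (-1.12 without ICH 1 and EDB 3). The EDB libraries lay wholly below ICH in 16 of the 19, against the 13.6% of all genes. Gpnmb, a membrane glycoprotein of phagocyte lysosomes, was at 892, 470.3 and 401 CPM in ICH, 146.5, 90.7 and 58.7 CPM in EDB and at most 9.71 CPM in Sham. Its EDB values were between those of the other groups (-2.58 ± 0.35, adjusted p = 0.0218), and the difference without ICH 1 and EDB 3 was -1.88 (adjusted p = 0.0163). Lgals3, which encodes the sugar-binding protein galectin-3, was at 222.3, 118.0 and 119.1 CPM in ICH and 49.6, 18.9 and 16.1 CPM in EDB (adjusted p = 0.0418). The lysozyme gene Lyz2 fell from 592.3, 389.7 and 357.3 CPM to 174.3, 99.7 and 101.4 CPM (-1.83 ± 0.27, adjusted p = 0.0244).

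The other called members were Ctsb, the lysosomal protease cathepsin B, and Tspo, the outer mitochondrial membrane protein used to image inflamed brain. Ctsb was at 2574, 2302 and 2501 CPM in ICH and 1548, 1298 and 1021 CPM in EDB, both above the Sham range of 514 to 600.7 CPM (-0.93 ± 0.16, adjusted p = 0.0411). Tspo was also lower (-1.19 ± 0.22, adjusted p = 0.0439). Spp1, the gene of the secreted phosphoprotein osteopontin, had the largest difference on the list and was not called. It stood at 1912, 380.1 and 294.9 CPM in ICH and at 88.3, 82.3 and 44.6 CPM in EDB, so the groups did not overlap and ICH 1 was far above ICH 2 and ICH 3 (-3.59 ± 0.70, adjusted p = 0.0621).

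General microglial and macrophage markers gave no call. None of 18 tested passed edgeR's threshold, 13 had an unadjusted p under 0.05 and were lower, and DESeq2 called 6 lower and limma-voom 1. Their median was -0.71, or -0.42 without ICH 1 and EDB 3. Their summed level was 3924, 4047 and 4304 CPM in ICH and 3370, 3062 and 1930 CPM in EDB, lowest in EDB 3. The exact two-sided permutation p was 0.1, the smallest that 3 against 3 allows, here and wherever the groups' sums do not overlap. Aif1, the microglial calcium-binding protein used as a stain, was at 44.1, 36.4 and 46.8 CPM in ICH and 34.1, 27.9 and 17.9 CPM in EDB (-0.67 ± 0.22, adjusted p = 0.176). Of 11 tested genes of resting microglia none was called, and DESeq2 and limma-voom called none either. At an unadjusted p under 0.05, 2 of the 11 were lower, beside 1423 of all 14274 genes tested. The median of the 11 was -0.44 (-0.12 without ICH 1 and EDB 3). In bulk tissue, fewer cells of a type and less RNA per cell cannot be told apart.

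Of 11 tested monocyte and border macrophage markers, Lyz2 and Cd44 were lower and 9 were not called. Their median was -1.10, and -0.32 without ICH 1 and EDB 3. The 13 markers of this list in the files summed to 692.6 to 1165 CPM in ICH and 300.1 to 451.6 CPM in EDB. Outside the lists, lower genes of myeloid cells included the macrophage lectin Siglec1 (91.9, 80.2 and 54.7 CPM in ICH, 21.3, 18.9 and 5.75 CPM in EDB) and the cytokine receptor subunit Csf2rb (-1.64 ± 0.31). Arg1, the arginase of alternatively activated macrophages, was lower by 1.88 log2 units, at 11.3, 7.05 and 4.70 CPM in ICH against 1.92, 2.16 and 2.19 CPM in EDB. These genes were singled out after their values were seen.

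Cd8a was the 1 called gene among 6 tested markers of T, B and NK cells. It encodes the CD8 alpha chain, which cytotoxic T cells carry and rat macrophages can carry too. Its level was 36.0, 13.97 and 7.56 CPM in ICH, 2.91, 1.56 and 1.5 CPM in EDB and at most 0.188 CPM in Sham. Cd8b, the gene of the CD8 beta chain, was also wholly below ICH in EDB, at 9.80, 4.03 and 2.05 CPM in ICH and 1.98, 0.540 and 0.813 CPM in EDB, and was not called by edgeR (-2.25 ± 0.66, adjusted p = 0.135) but was by DESeq2 (adjusted p = 0.0330). Of the 6 markers, 5 had negative differences, 2 were lower at an unadjusted p under 0.05 and 2 by DESeq2, and the median was -0.43 (-0.33 without ICH 1 and EDB 3). The 1 positive difference was that of the T cell receptor complex gene Cd3e, at 0.233, 0.818 and 1.19 CPM in ICH and 0.371, 1.02 and 2.06 CPM in EDB (0.61 ± 0.68, adjusted p = 0.693). The neutrophil list had 7 genes tested and none called, 2 lower at an unadjusted p under 0.05, 1 lower by DESeq2 and none by limma-voom, and its median was -0.87 (-0.55 without ICH 1 and EDB 3).

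Genes of complement and of receptors for uptake were lower in 2 of 20 tested members and not called in 18. The pair was Serping1, the inhibitor of the first complement component, and Cd14, the coreceptor for bacterial lipopolysaccharide. Serping1 was at 184.6, 198.3 and 202.5 CPM in ICH and 125.4, 80.8 and 69.6 CPM in EDB, above 21.6 to 23.8 CPM in Sham (-1.09 ± 0.19, adjusted p = 0.0411). Cd14 had 20.9, 15.1 and 16.8 CPM in ICH and 8.35, 7.91 and 4.50 CPM in EDB (-1.34 ± 0.26, adjusted p = 0.0490). The list had a median of -0.65, or -0.39 without ICH 1 and EDB 3. C1qb, a chain of the first complement component, was at 539.5, 558.1 and 660.8 CPM in ICH and 483.4, 392.5 and 261.0 CPM in EDB, without a call (-0.63 ± 0.20, adjusted p = 0.172).

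Astrocyte calls were among reactive genes. Of 25 tested genes of reactive astrocytes 6 were lower, 0 higher and 19 not called, with a median of -1.07 and of -0.89 without ICH 1 and EDB 3. The 6 were Nes, Cd44, Hspb1, Emp1, Ggta1 and Timp1. Cd44, the receptor for hyaluronan, was at 86.4, 50.4 and 59.8 CPM in ICH and 20.4, 16.8 and 26.8 CPM in EDB, with 16.7 to 18.8 CPM in Sham (-1.62 ± 0.22, adjusted p = 0.0198). Hspb1, a small heat shock protein gene, was at 69.2, 79.3 and 76.5 CPM in ICH and 21.5, 11.03 and 29.9 CPM in EDB, with 8.76 to 8.85 CPM in Sham (-1.85 ± 0.27, adjusted p = 0.0244). In both genes EDB 2 was the lowest EDB library and the nearest to the Sham level.

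Gfap, the intermediate filament gene most used to mark reactive astrocytes, was not called. It counted 5044, 5165 and 4544 CPM in ICH and 3129, 2804 and 3770 CPM in EDB, against 402.8 to 544.4 CPM in Sham, so EDB lay below ICH without overlap and far above Sham (-0.60 ± 0.16, adjusted p = 0.109). Vim, the filament gene vimentin, had 719.9, 672.5 and 542.5 CPM in ICH and 246.4, 121.9 and 366.7 CPM in EDB (-1.40 ± 0.31, adjusted p = 0.0715). Among 18 genes of resting astrocyte function none was called, 4 were lower and 1 higher at an unadjusted p under 0.05, DESeq2 called 1 lower and 1 higher, limma-voom none, and the median was 0.05, with the sign turned at -0.14 without ICH 1 and EDB 3. The water channel gene Aqp4 was spread widely, at 633.7, 285.8 and 385.5 CPM in ICH and 160.7, 237.0 and 192.7 CPM in EDB (-1.14 ± 0.43, adjusted p = 0.230). Chi3l1 and Pdpn, a secreted glycoprotein and a membrane glycoprotein found in reactive astrocytes, were outside the list and were lower (-0.996 ± 0.17 and -1.25 ± 0.15). Both were singled out after their values were seen, so they add no support to the list.

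**Figure D4:**
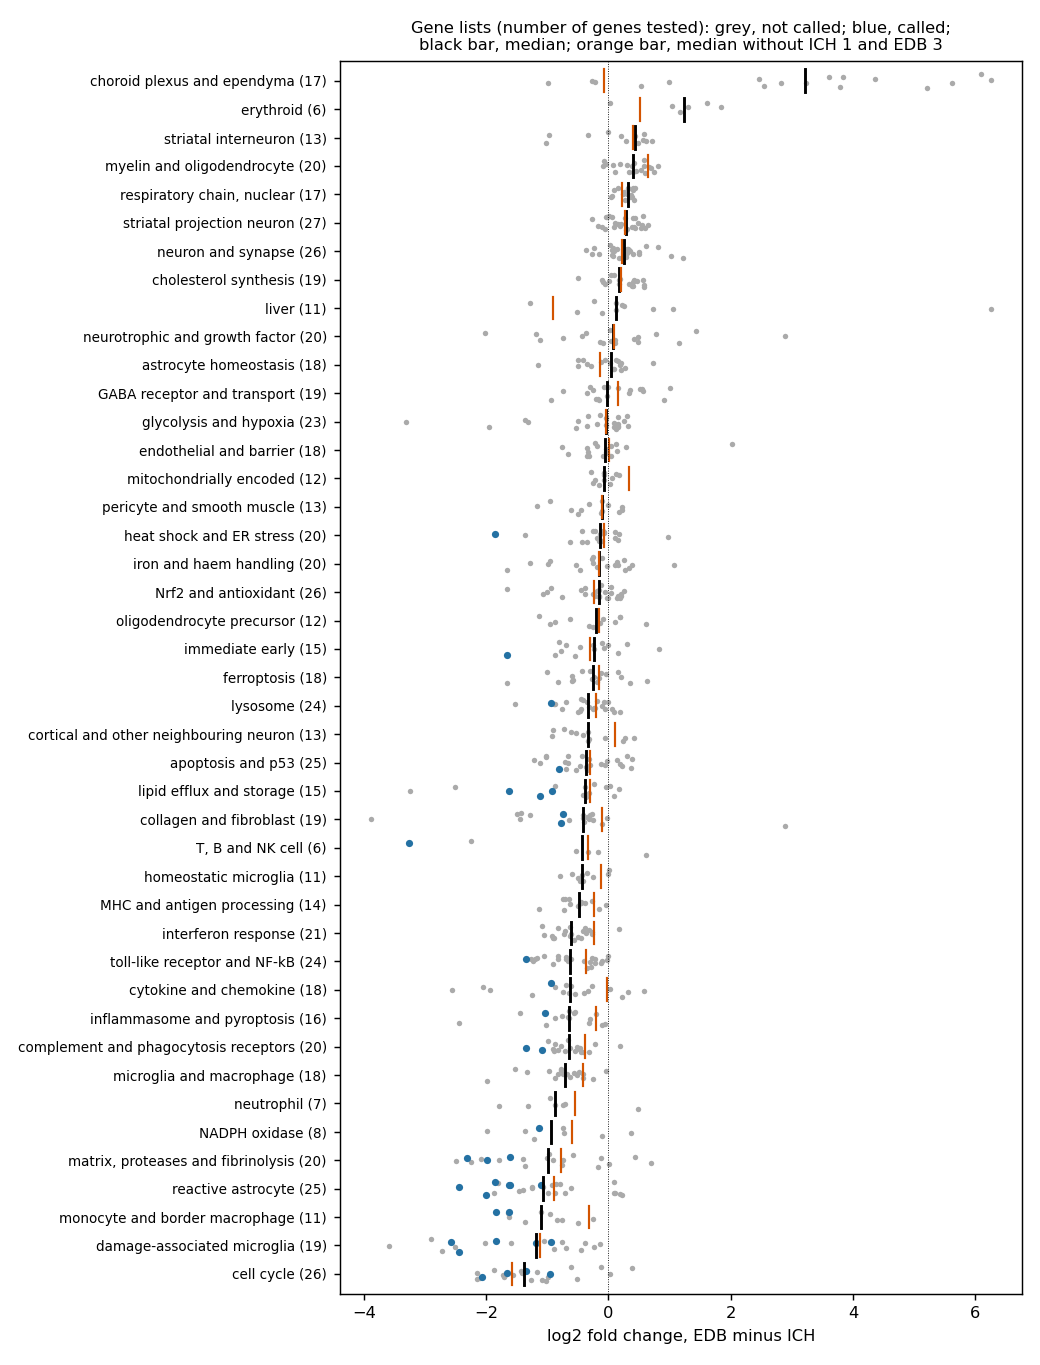
Each row is a gene list with its number of tested genes, each point is a gene at its log2 fold change of EDB minus ICH (horizontal), blue where called, with the median as a black bar and the median without ICH 1 and EDB 3 as an orange bar. Medians run from -1.38 for cell cycle genes to 3.22 for choroid plexus genes, whose median falls to -0.07 without ICH 1 and EDB 3.

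Cell division genes had the lowest median of the 43 lists. Of 26 tested, 4 were lower, 0 higher and 22 not called, with a median of -1.38, or -1.58 without ICH 1 and EDB 3. In 22 of the 26 the EDB libraries lay wholly below the ICH libraries, read against 13.6% of all genes. The list summed to 485.5, 515.2 and 505.0 CPM in ICH, 255.6, 206.1 and 293.6 CPM in EDB and 136.6 to 231.7 CPM in Sham. Rrm2, a subunit of the ribonucleotide reductase that makes DNA building blocks, was at 20.1, 26.9 and 29.1 CPM in ICH and 6.87, 6.17 and 5.06 CPM in EDB (-2.07 ± 0.31, adjusted p = 0.0244). Mcm3, part of the helicase that opens DNA for replication, was at 24.3, 21.6 and 20.7 CPM in ICH and 9.34, 6.77 and 10.1 CPM in EDB (-1.34 ± 0.25, adjusted p = 0.0445). The mitotic kinase genes Plk1 (-1.66 ± 0.32) and Aurka (-0.96 ± 0.16) were the remaining calls on the list.

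Called genes outside the list, picked out after their values were seen, also act in DNA replication and mitosis. Mcm10, a replication initiation factor, was at 6.47, 6.86 and 5.72 CPM in ICH and 0.990, 1.14 and 1.88 CPM in EDB. The nucleotide synthesis genes Tk1 and Rrm1 differed by -1.76 ± 0.26 and -0.95 ± 0.16. Dlgap5 of the mitotic spindle (-1.70 ± 0.31), Ckap2l of the spindle (-2.18 ± 0.37) and E2f7, a repressor of the cell cycle (-1.95 ± 0.35), were lower as well. Top2a, the topoisomerase of dividing cells, was at 22.4, 20.8 and 23.2 CPM in ICH and 2.97, 4.62 and 7.94 CPM in EDB without a call (-2.10 ± 0.56, adjusted p = 0.108), while Sham ranged from 1.51 to 11.9 CPM.

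Many promoters of cell division genes carry CCAAT boxes, which the trimeric factor NF-Y binds, close to the start of transcription. The letters CCAAT were searched on both strands in the 250 bases before the start in RefSeq promoters of build GRCr8, found for 10120 of the genes tested. They were present in 14 of the 21 promoters found for the cell division list (66.7%), in 25 of the 64 found for all lower genes (39.1%) and in 35.05% of all. The letters TTTGAA, known as the CHR element, were in 33.3% of the list's promoters, 10.9% of those of the lower genes and 10.1% of all. These matches describe letters, not binding. Of the 10 lower genes of cell division named above, 9 had a promoter entry, and 6 of these held CCAAT while Aurka, Tk1 and Ckap2l did not. The 5 with a box nearest the start are shown, chosen after their values were seen, with CCAAT or its reverse complement ATTGG in capitals and the base before the start last.
Mcm3, chr9:30733747-30733896, minus strand: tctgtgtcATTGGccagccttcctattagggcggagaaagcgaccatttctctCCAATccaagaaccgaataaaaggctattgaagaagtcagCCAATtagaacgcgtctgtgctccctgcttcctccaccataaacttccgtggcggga
Mcm10, chr17:78175227-78175386, plus strand: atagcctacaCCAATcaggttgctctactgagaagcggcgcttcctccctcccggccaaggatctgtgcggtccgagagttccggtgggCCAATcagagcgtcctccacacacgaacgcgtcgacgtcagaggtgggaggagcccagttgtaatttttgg
Dlgap5, chr15:23144177-23144276, minus strand: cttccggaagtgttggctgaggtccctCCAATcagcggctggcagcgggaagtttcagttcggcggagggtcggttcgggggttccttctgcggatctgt
E2f7, chr7:48036803-48036902, plus strand: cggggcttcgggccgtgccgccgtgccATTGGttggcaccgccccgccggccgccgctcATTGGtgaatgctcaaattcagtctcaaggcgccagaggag
Plk1, chr1:186147558-186147657, plus strand: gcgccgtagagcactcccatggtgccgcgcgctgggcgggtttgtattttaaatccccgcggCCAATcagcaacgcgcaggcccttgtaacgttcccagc

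In these promoters the box nearest the start began 57 bases before it in Mcm3, 71 in Mcm10, 73 in Dlgap5, 41 in E2f7 and 38 in Plk1. Mcm3 held 3 boxes, Mcm10 and E2f7 a pair each, and Dlgap5 and Plk1 1 each within the stretch shown. All 5 genes had EDB libraries wholly below ICH, as had all 90 lower genes, so this says nothing particular about these 5. For Plk1 the levels were 16.9, 20.6 and 21.3 CPM in ICH and 6.56, 4.32 and 7.69 CPM in EDB.

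Genes of matrix breakdown and of fibrinolysis, the dissolving of clots, were lower in 3 of 20 tested members and not called in 17. The list had a median of -0.99, or -0.78 without ICH 1 and EDB 3. S100a10, a cell surface receptor subunit for plasminogen, was at 51.5, 35.1 and 36.8 CPM in ICH and 14.7, 6.83 and 9.69 CPM in EDB (-1.98 ± 0.26, adjusted p = 0.0198). Plau, the urokinase that turns plasminogen into plasmin, was at 37.2, 14.5 and 13.7 CPM in ICH and 4.83, 5.33 and 3.001 CPM in EDB (-2.31 ± 0.41, adjusted p = 0.0418). Timp1, an inhibitor of metalloproteases, was at 49.5, 40.02 and 36.2 CPM in ICH and 22.2, 10.4 and 8.75 CPM in EDB (-1.60 ± 0.31, adjusted p = 0.0475). In each of the 3 genes ICH 1 was the highest library and all EDB values lay above the Sham range. Plaur, the urokinase receptor, had a difference of -2.25 ± 0.47 without a call (adjusted p = 0.0621). Mmp9, a gelatinase linked to barrier damage, was under 6 CPM throughout and was not called (-1.79 ± 0.69, adjusted p = 0.231).

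On the lists of collagen, fibroblast and vessel genes, only basement membrane collagens were called. Of 19 tested collagen and fibroblast genes Col4a1 and Col4a2, the chains of basement membrane collagen, were lower (-0.77 ± 0.15 and -0.74 ± 0.14) and 17 were not called, with a median of -0.42 (-0.11 without ICH 1 and EDB 3). Col4a1 was at 163.9, 126.5 and 118.0 CPM in ICH and 92.5, 72.6 and 74.5 CPM in EDB, where Sham had 73.8 to 80.6 CPM. None of 13 tested pericyte and smooth muscle genes was called, with a median of -0.11 (-0.11 without ICH 1 and EDB 3). Of 18 endothelial and barrier genes none was called, 3 were lower and 1 higher at an unadjusted p under 0.05, DESeq2 called 1 lower and limma-voom none, and the median was -0.06 (0.01 without ICH 1 and EDB 3). Angpt2, a vessel growth factor outside these lists, was lower (-1.74 ± 0.34, adjusted p = 0.0499). It was singled out after its values were seen.

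Lipid handling genes were lower in 3 of 15 tested members and not called in 12, with a median of -0.38 (-0.30 without ICH 1 and EDB 3). Plin2, the coat protein of lipid droplets, was at 112.7, 59.3 and 57.4 CPM in ICH and 30.3, 22.4 and 21.5 CPM in EDB (-1.63 ± 0.26, adjusted p = 0.0324). Abca1, which exports cholesterol, was at 66.1, 63.1 and 63.8 CPM in ICH and 36.9, 29.8 and 22.6 CPM in EDB (-1.11 ± 0.21, adjusted p = 0.0475). Soat1, which esterifies cholesterol for storage, had 93.9, 80.0 and 75.3 CPM in ICH and 41.3, 46.0 and 43.9 CPM in EDB (-0.93 ± 0.14, adjusted p = 0.0244). Abcg1, another cholesterol exporter, was not called and overlapped between the groups, at 197.0, 236.8 and 175.9 CPM in ICH and 241.8, 204.9 and 204.6 CPM in EDB (0.10 ± 0.19, adjusted p = 0.841). Of 24 tested lysosome genes, Ctsb was lower and 23 were not called, with a median of -0.34 (-0.21 without ICH 1 and EDB 3).

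Signalling genes of inflammation gave 1 call per list. Of 24 toll-like receptor and NF-kB genes Cd14 was lower (median -0.63, -0.37 without ICH 1 and EDB 3). Of 18 cytokine and chemokine genes Cxcl16, a membrane-bound chemokine, was lower at 41.1, 34.5 and 33.3 CPM in ICH and 19.8, 20.9 and 16.1 CPM in EDB (median -0.63, and -0.02 without ICH 1 and EDB 3). Of 16 inflammasome and pyroptosis genes Ninj1, which ruptures the membrane of dying cells, was lower at 49.2, 49.7 and 45.7 CPM in ICH and 25.7, 20.0 and 24.7 CPM in EDB (-1.04 ± 0.14, adjusted p = 0.0198). That list had a median of -0.65, or -0.21 without ICH 1 and EDB 3. Of 25 apoptosis and p53 genes the tumor necrosis factor receptor Tnfrsf1a was lower (-0.81 ± 0.14), with a list median of -0.37 (-0.30 without ICH 1 and EDB 3). The cytokine genes Il1b and Tnf were too scarce to compare, each at 1.34 CPM or less in the 6 libraries. Socs3, a feedback inhibitor of cytokine signalling, and Il4r, the receptor for interleukin 4, were lower by 1.84 and 1.16 log2 units. Both are outside the lists and were singled out after their values were seen.

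Oxidative stress, iron and ferroptosis genes were listed because edaravone scavenges radicals, and few of them were called. Among 8 tested genes of the NADPH oxidase, the enzyme with which phagocytes make superoxide, Cyba was lower at 66.9, 52.5 and 49.7 CPM in ICH and 33.7, 25.4 and 17.5 CPM in EDB (-1.14 ± 0.22, adjusted p = 0.0475). The catalytic subunit gene Cybb was at 31.6, 22.3 and 18.2 CPM in ICH and 5.32, 8.87 and 3.88 CPM in EDB and missed the threshold (-1.99 ± 0.41, adjusted p = 0.0580). The median of the 8 was -0.94, or -0.59 without ICH 1 and EDB 3. Of 26 Nrf2 and antioxidant genes none was called, 7 were lower at an unadjusted p under 0.05, DESeq2 called 3 lower and limma-voom 1, and the median was -0.15 (-0.23 without ICH 1 and EDB 3). Of 20 iron and haem genes none was called, 4 were lower and 1 higher at an unadjusted p under 0.05, DESeq2 called 2 lower and limma-voom 1, and the median was -0.15 (-0.16 without ICH 1 and EDB 3). Of 18 ferroptosis genes none was called, 5 were lower at an unadjusted p under 0.05, DESeq2 called 3 lower and limma-voom 1, and the median was -0.25 (-0.15 without ICH 1 and EDB 3).

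Hmox1, the haem oxygenase that breaks down haem, belongs to all 3 of these themes. It was at 437.2, 387.8 and 519.1 CPM in ICH and at 239.7, 128.8 and 54.8 CPM in EDB, beside 9.25 to 11.5 CPM in Sham. The groups did not overlap, the EDB libraries differed widely among themselves, and no call resulted (-1.67 ± 0.40, adjusted p = 0.0920). Nfe2l2, the gene of the antioxidant regulator Nrf2, had 63.1, 33.7 and 37.1 CPM in ICH and 25.4, 28.7 and 25.2 CPM in EDB (-0.76 ± 0.29, adjusted p = 0.231). Gpx4, which repairs lipid peroxides, and Sod2, the mitochondrial superoxide dismutase, had small differences (0.20 ± 0.13 and 0.21 ± 0.11, adjusted p = 0.467 and 0.378). The 12 erythroid genes in the files varied within both groups, with summed levels from 69.5 to 1080 CPM in ICH and from 273.8 to 1358 CPM in EDB.

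Interferon and antigen presentation lists gave no call. Of 21 interferon response genes 10 were lower at an unadjusted p under 0.05, and of 14 genes of antigen presentation 5. DESeq2 called 1 lower in each and limma-voom none. Their medians of -0.61 and -0.48 became -0.24 and -0.24 without ICH 1 and EDB 3.

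Of the 90 lower genes, 89 had a higher mean in ICH than in Sham, a comparison that uses the same ICH libraries and is no separate support. The exception was Fos, the immediate early gene that neurons transcribe on activity. It stood at 49.7, 48.5 and 45.9 CPM in Sham, 23.7, 18.8 and 50.4 CPM in ICH and 11.9, 9.35 and 8.07 CPM in EDB. EDB was below all other libraries, and ICH 3 alone of its group was at the Sham level (-1.67 ± 0.32, adjusted p = 0.0475). The other 14 tested immediate early genes were not called. Of the 15, 12 had negative differences and 5 lay wholly below ICH in EDB, against 13.6% of all genes. At an unadjusted p under 0.05, 3 of the 15 were lower, beside 1423 of all 14274 genes tested. DESeq2 called 2 of the 15 lower, beside 481 of all. The median was -0.24 (-0.30 without ICH 1 and EDB 3). Summed over the 16 genes in the files, levels were 589.1 to 624.1 CPM in ICH and 449.0 to 548.8 CPM in EDB. Egr1 (-0.01 ± 0.23, or 0.01 with RLE scaling) and Arc (-0.10 ± 0.34) had differences near 0 with adjusted p = 0.985 and 0.908.

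The 8 genes higher in EDB differed by 0.58 to 1.03 log2 units, and none was in a list. Pcp4, a calmodulin regulator of neurons, was at 440.7, 370.2 and 416.2 CPM in ICH, 826.5, 757.7 and 802.8 CPM in EDB and 662.1 to 1102 CPM in Sham (0.96 ± 0.17, adjusted p = 0.0439). The EDB libraries lay within the Sham range and clustered tightly. Prodh1, the mitochondrial enzyme that begins proline breakdown, was at 36.7, 42.7 and 48.8 CPM in ICH and 78.5, 62.7 and 83.3 CPM in EDB (0.81 ± 0.14, adjusted p = 0.0418). Mcf2l, a guanine nucleotide exchange factor, rose from 129.3, 117.1 and 121.6 CPM to 187.8, 188.6 and 191.9 CPM (0.63 ± 0.10, adjusted p = 0.0411).

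Rell2 and Tcte1 were higher by 0.73 ± 0.14 and 0.58 ± 0.11. Slc13a3, a sodium-coupled transporter of dicarboxylates, was at 30.4, 27.9 and 28.5 CPM in ICH and 68.8, 43.7 and 57.1 CPM in EDB (0.97 ± 0.18, adjusted p = 0.0439). Steap2, a metalloreductase that acts on iron and copper, was the 1 higher gene whose mean in ICH was not below that in Sham. It was at 9.50, 7.61 and 9.07 CPM in ICH, 19.9, 14.6 and 19.1 CPM in EDB and 5.94 to 7.79 CPM in Sham, so EDB lay above both other groups (1.03 ± 0.20, adjusted p = 0.0485). None of these 8 genes was called in more than 3 of the 9 fits that left out 1 library, and none without ICH 1 and EDB 3.

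**Figure D5:**
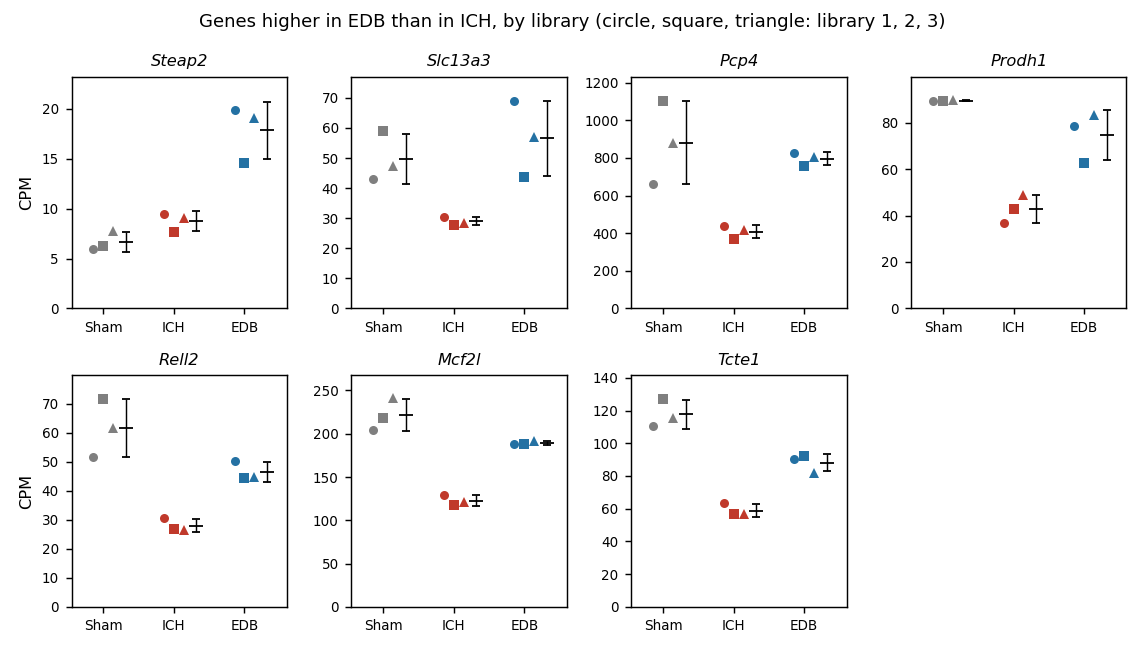
Each panel gives the CPM of 1 of 7 genes higher in EDB (vertical axis from 0) in the 3 Sham, 3 ICH and 3 EDB libraries, with the mean and SD (n = 3) as a black dash and bar. The EDB libraries lie above the ICH libraries in all 7 panels, and in Steap2 they lie above the Sham libraries too.

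Neuron, myelin and respiratory chain genes had medians above 0 and no call. Of 26 neuron and synapse genes 6 were higher at an unadjusted p under 0.05 (median 0.26), of 27 projection neuron genes 7 (median 0.28), of 20 myelin genes 3 (median 0.41) and of 17 nuclear respiratory chain genes 9 (median 0.32). DESeq2 called 4, 2, 1 and 1 of them higher and limma-voom none. The EDB libraries lay wholly above ICH in 9, 13, 10 and 12 of these genes, read against 11.6% of all genes. Without ICH 1 and EDB 3 the medians were 0.22, 0.27, 0.65 and 0.22. Penk, the opioid precursor of indirect pathway neurons, was at 941.4, 994.1 and 1066 CPM in ICH and 1409, 1510 and 1606 CPM in EDB (0.59 ± 0.16, adjusted p = 0.104). Ppp1r1b was at 2330, 3069 and 3433 CPM in ICH and 4145, 4075 and 3688 CPM in EDB (0.43 ± 0.23, adjusted p = 0.390), and the dopamine receptor genes Drd1 and Drd2 each differed by 0.28 (adjusted p = 0.483 and 0.458). Mbp, the myelin basic protein gene, had ICH 3 lowest at 9584 CPM and a difference of 0.81 ± 0.27 (adjusted p = 0.182). The summed myelin markers were 35450, 31240 and 17940 CPM in ICH and 41720, 41540 and 47010 CPM in EDB. The share of counts from mitochondrially encoded genes was 2.93% to 8.29% in ICH and 4.56% to 5.94% in EDB, so those ranges overlapped.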

How the data were processed

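RNA of rat striatum was sequenced in 9 libraries. Each deposited file gives the raw read counts of 1 library by gene. The submitters' processing notes name cutadapt, HISAT2, HTSeq and limma with build Rnor_6.0, and their versions, roles and strand setting are not given there. The test used edgeR 4.0.16 in R 4.3.3: filterByExpr by group, TMM scaling, 1 model of all 9 libraries with a mean per group, and the robust quasi-likelihood F test of EDB minus ICH, two-sided, adjusted by Benjamini-Hochberg. The procedure was tested on simulated data. CPM use TMM-scaled library sizes. Summed marker levels were compared by exact permutation.

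Named genes are the 14 largest falls and rises among called genes with a symbol (clone names excluded), 5 CPM or more on average in the higher group and no overlap, up to 4 genes per list by p, 18 genes of interest and 6 library checks, besides genes said to be chosen after their values were seen. A few list members, such as Abcg1, were named outside these rules. Ncan, Cebpd, Tubb6 and Tuba1c were named because each of the 9 fits that left out 1 library called them. Of 802 genes in 43 lists, 756 were in the files. Some genes are not reported here. The members and lists were chosen with earlier results of these data known. Alternatives were RLE scaling, library size only, 2 other filters, DESeq2 1.42.0, limma-voom (limma 3.58.1), only the 6 libraries, a replicate block, other thresholds and leaving out libraries.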

Additional observations from a re-analysis of the deposited data

How the results depend on the processing

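Against 90 lower and 8 higher genes, limma-voom called 161 and 21, and DESeq2 481 and 215. Fitting only the 6 EDB and ICH libraries gave 84 and 26, of which 52 and 6 were among the 98. An adjusted p under 0.01 left 5 and 0, and adding an absolute log2 fold change above 1 left 66 and 1. With ICH 1 and EDB 3 both left out there were 11 and 5. Leaving out 1 library gave 8 to 229 lower and 0 to 92 higher genes. Fits with fewer samples have fewer degrees of freedom, and beyond that the cause was not tested. RLE scaling, library size only and both other filters gave 84 to 124 lower and 7 to 11 higher genes. With the replicate number as a replicate block, 58 lower and 0 higher genes were called over 9 libraries by edgeR (785 higher at an unadjusted p under 0.05) and 168 and 35 over 6. Same-numbered EDB and ICH libraries had correlations of -0.017, -0.025 and 0.22 in their deviations from the group means. EDB 3 alone correlated best with its own number. With 3 libraries per group these values cannot settle whether same-numbered libraries were paired. Of the genes named with a difference, 3 that were not called changed sign in some fits: Cd3e (-0.526 without ICH 1 and EDB 3, -0.104 to 1.129 with 1 library left out), Egr1 (0.014 with only the 6 libraries, -0.096 to 0.072 with 1 left out) and Arc (-0.31 to 0.105 with 1 left out). Depth limits scarce genes such as Il1b and Tnf.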
